A study of Mus musculus with 14 samples.

Results

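The 9 genes described here encode secreted ADAMTS proteases (a disintegrin and metalloproteinase with thrombospondin motifs) of the mouse: Adamts1, Adamts4, Adamts5, Adamts7, Adamts9, Adamts10, Adamts12, Adamts14 and Adamts15. They were picked by name out of 19 Adamts genes among the 23284 genes of the tables, and they were chosen by measured values of these same libraries, since Adamts4 and Adamts14 had shown marked patterns by TGF-β and by cell line. Values that guided that choice are therefore given below as a description, and no p-value is given for a member.

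Gene expression was measured by RNA-seq in EpH4 cells, a mouse mammary gland epithelial line, and in EpRas cells, their H-Ras-transformed derivative. Untransfected cells gave 8 libraries, 2 for each of EpH4 and EpRas cells, left untreated or treated with 1 ng/ml TGF-β3 for 48 h. A further 6 libraries, 1 per condition, came from EpRas cells that had received a control siRNA (called siNC), a first pair of siRNAs targeting the ETS transcription factors Etv4 and Etv5, or a second such pair, in each case without or with that TGF-β treatment. The comparisons ask how protease expression differs between the lines, how TGF-β changes it, and how it stands after loss of Etv4 and Etv5. Each line is a single line, and EpH4 cells were grown in 10% and EpRas cells in 4% serum, so transformation by Ras, line and serum cannot be told apart.

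ADAMTS proteases are made as inactive precursors, lose their propeptide to furin-like convertases and act in the extracellular matrix. Adamts1, Adamts4, Adamts5, Adamts9 and Adamts15 belong to the group that cleaves aggrecan and versican, large proteoglycans of cartilage and of the pericellular matrix, and TIMP3 is their main inhibitor. Adamts14, with Adamts2 and Adamts3, removes the amino-terminal propeptide of fibrillar procollagens. Adamts7 and Adamts12 cleave cartilage oligomeric matrix protein, and Adamts10 acts on fibrillin microfibrils.

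Expression is given as FPKM, a fragment number corrected for gene length and library size, which allows levels of different genes to be set side by side. Whole read numbers could be worked out of the FPKM steps for 8 of the 9 members, all but Adamts10. The relative depth of the untransfected libraries ran from 0.609 to 1.36 of the first EpH4 library, and that of the siRNA libraries from 1.0 to 1.74 of siNC without TGF-β. All 6 epithelial markers were at 1 FPKM or more in every library, and the summed level of 3 endothelial markers stayed at or below 2.0 FPKM and that of 4 leukocyte markers between 0.293 and 7.13 FPKM. TGF-β raised Pmepa1, a standard TGF-β target, by 2.06 ± 0.20 on the log2(FPKM + 1) scale in EpH4 cells (SE, limma adjusted p = 0.00101), and EpRas cells held 199 ± 37.6 FPKM of it with TGF-β against 87.6 ± 17.4 without (SD, n = 2). Being bulk samples, they cannot tell fewer cells with a transcript from less transcript per cell.

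The protease that led the family changed with line and treatment. In untreated EpH4 cells the 19 Adamts genes summed to 48.5 and 58.3 FPKM, and Adamts1 held the largest share, 40.8% and 48.1%. With TGF-β the sum in EpH4 cells was 129 and 119 FPKM, of which Adamts4 made up 60.5% and 63.4%. In EpRas cells Adamts14 led in all 4 libraries, with 49.1% and 47.5% of 63.0 and 51.2 FPKM without TGF-β and 56.0% and 59.0% of 66.2 and 93.1 FPKM with it. The bar chart of the summed family levels shows these shares together with those of the siRNA libraries.

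**Figure D1:**
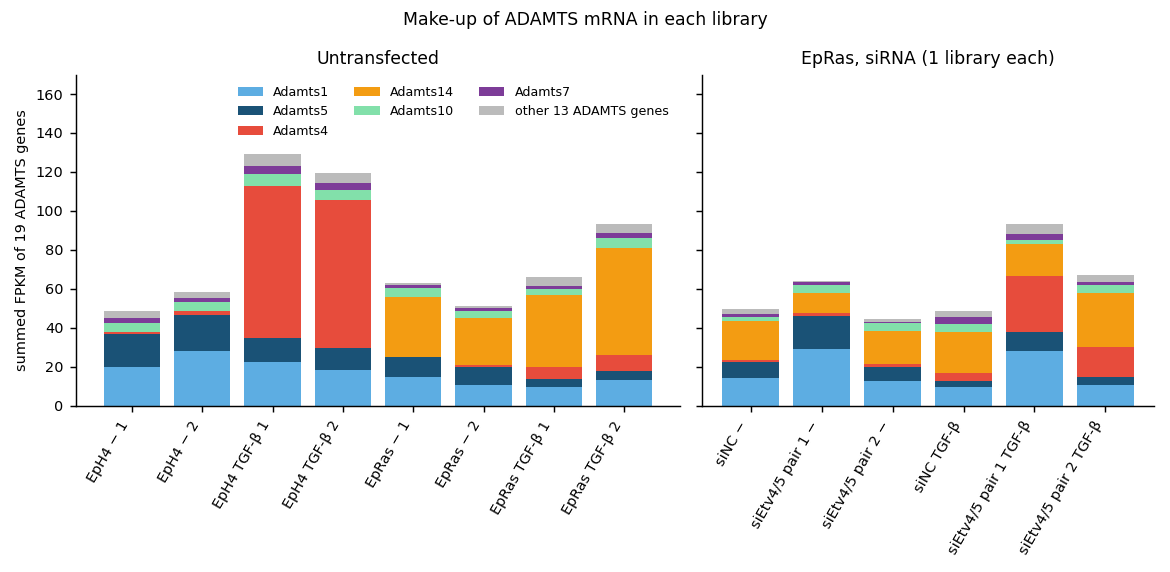
Summed FPKM of the 19 Adamts genes (vertical axis) in each of the 8 untransfected and 6 siRNA libraries (horizontal axis, 1 bar each), stacked by gene. Adamts1 leads in untreated EpH4 cells, Adamts4 in EpH4 cells with TGF-β (60.5% and 63.4% of the sum) and Adamts14 in the 4 untransfected EpRas libraries.

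The region around the start of Adamts14, which was near 0 in EpH4 cells, and of Adamts1, which both lines expressed, is shown for context. RefSeq promoter windows (GRCm38.p6, 250 bases before to 50 after the annotated start) were matched for 4 of the 9 members, Adamts1, Adamts9, Adamts12 and Adamts14. Capitals mark GGAA or its complement TTCC, the core of the sites that ETS factors such as Etv4 and Etv5 recognise.
Adamts14, chr10:61273370-61273669, minus strand: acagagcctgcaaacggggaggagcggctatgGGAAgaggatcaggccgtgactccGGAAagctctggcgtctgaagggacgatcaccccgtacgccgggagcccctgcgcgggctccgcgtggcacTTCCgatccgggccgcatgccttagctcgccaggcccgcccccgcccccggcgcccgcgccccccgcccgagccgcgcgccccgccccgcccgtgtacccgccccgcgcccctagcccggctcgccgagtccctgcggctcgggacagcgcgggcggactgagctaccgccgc
Adamts1, chr16:85803064-85803363, minus strand: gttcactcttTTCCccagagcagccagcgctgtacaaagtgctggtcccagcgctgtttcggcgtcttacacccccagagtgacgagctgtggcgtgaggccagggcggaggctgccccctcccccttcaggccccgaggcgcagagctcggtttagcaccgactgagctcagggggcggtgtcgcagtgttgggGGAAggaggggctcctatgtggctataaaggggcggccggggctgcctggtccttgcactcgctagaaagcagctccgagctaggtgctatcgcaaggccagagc
GGAA, searched on both strands, occurred 3 times in the Adamts14 window, 2 times in that of Adamts1, 4 times in that of Adamts12 and 1 time in that of Adamts9. Of 32851 promoter windows of this length, 96.0% held at least 1, and 66.3% held at least as many as Adamts14. The Adamts14 window had a GC content of 76.7% with 44 CpG, higher than 97.3% of the windows, and the Adamts1 window 64.7% with 18 CpG. CAGAC (or GTCTG), part of the sites that Smad proteins bind, occurred 1 time in the Adamts14 window and in none of the other 3, against 49.6% of all windows. TGACTCA or TGAGTCA, the AP-1 site, was in none of the 4 and in 5.2% of all windows.

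Adamts14 (chr10:61197112-61273438, minus strand, GENCODE M21 on GRCm38) was found in EpRas cells and gave 0 to 2 reads in EpH4 libraries. Its level was 0 and 0.0252 FPKM in the 2 untreated EpH4 libraries, from 0 and 1 read, and 0 and 0.0636 FPKM with TGF-β, from 0 and 2 reads. The 3 reads that a count of 0 allows stand for 0.102 FPKM in the first untreated EpH4 library and 0.142 FPKM in the first with TGF-β. In EpRas cells it was 30.9 and 24.3 FPKM without TGF-β, from 552 and 808 reads, and 37.1 and 55.0 FPKM with TGF-β, from 932 and 1074 reads. Every EpRas library lay far above every EpH4 library.

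Counted in reads per depth, Adamts14 was 1840 times higher in untreated EpRas than in untreated EpH4 cells, with a counting interval of 329 to 72700 that is wide because the EpH4 side rests on 1 read. With TGF-β the ratio was 1180 (326 to 9760), on 2 reads in EpH4 cells. These and all other intervals of read ratios are exact 95% binomial intervals and cover counting error only, not the spread between cultures. The difference in log2(FPKM + 1) was 4.81 ± 0.22 (SE) without and 5.48 ± 0.22 with TGF-β. Within EpRas cells both TGF-β libraries were above both untreated ones, 46.0 ± 12.7 against 27.6 ± 4.66 FPKM (SD, n = 2), a difference of 0.70 ± 0.22 on the log2 scale that did not pass the threshold. In EpRas cells with the control siRNA siNC, in a table quantified separately, the ratio of reads per depth with TGF-β to those without was 1.06 (0.968 to 1.16). With the first and second siRNA pair the same ratio was 1.67 (1.49 to 1.86) and 1.57 (1.44 to 1.72).

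Of 7 mesenchymal markers, Vim, Cdh2 and Pdgfra were higher in EpRas cells with and without TGF-β, as Adamts14 was. The mean of none of them was higher with TGF-β there. The summed level of the 7 was 2.6 to 2.77 FPKM in untreated EpH4 cells and 10.1 to 12.6 with TGF-β, and in EpRas cells 970 to 1190 and 945 to 966. Nearly all of the EpRas sum was Vim, at 1040 ± 164 FPKM untreated and 927 ± 16.3 with TGF-β, while Cdh2 was at 31.0 ± 6.84 and 21.4 ± 0.275 FPKM. Pdgfrb was at 0.952 ± 0.0516 FPKM in EpH4 and 7.62 ± 0.685 in EpRas cells when untreated, and at 7.73 ± 0.726 and 4.57 ± 1.08 with TGF-β, so that the order of the lines changed. Pdgfra was at 0.827 ± 0.224 FPKM in untreated EpH4 and 2.74 ± 0.591 in untreated EpRas cells. With TGF-β it was at 2.17 ± 0.141 in EpH4 and 2.73 ± 0.235 in EpRas cells. Thy1 and Lum were listed at 0 in all 8 libraries. The epithelial markers summed to 2480 to 5170 FPKM in EpRas and to 5090 to 9590 in EpH4 cells. They did not all go 1 way. In untreated cells the means of Krt7, Epcam, Cdh1 and Cldn4 were lower in EpRas cells. Those of Krt8 (964 ± 212 against 794 ± 129 FPKM) and Krt18 (1270 ± 261 against 1030 ± 149) were higher there, with overlapping libraries. The part of these markers in the Adamts14 values was not tested.

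Adamts2, the procollagen N-proteinase that is no member of the set, showed the opposite order between the lines at a much lower level. It gave 42 and 49 reads (2.02 and 1.74 FPKM) in untreated EpH4 cells and 19 and 23 reads (1.27 and 1.03 FPKM) with TGF-β. In EpRas cells it gave no read in either untreated library and 0 and 2 reads with TGF-β. With 3 reads as the floor over the group, untreated EpRas cells had at most 0.0446 of the EpH4 level per depth. With TGF-β the ratio was 0.0561 (0.00657 to 0.215). Adamts2 did not reach the 5 FPKM needed for the test, and it reached 1 FPKM in EpH4 cells only, so no test of it is given. Adamts3, the third N-proteinase, was at or below 0.136 FPKM in every EpH4 library and at 0 in the 4 EpRas libraries.

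The type I procollagen genes, whose products these enzymes trim, were higher in EpH4 cells, where Adamts14 was near 0. In EpH4 cells Col1a1 was at 20.0 ± 1.83 FPKM untreated and 212 ± 16.6 with TGF-β, and in EpRas cells at 1.69 ± 0.164 and 2.19 ± 0.844 (SD, n = 2). TGF-β raised it in EpH4 cells (log2 difference 3.34 ± 0.21, limma adjusted p = 0.000192). Among untransfected cells it reached 5 FPKM in EpH4 cells only, so the differences between the lines, -2.96 ± 0.21 without and -6.09 ± 0.21 with TGF-β, are given without a test. Col1a2 was also higher in EpH4 cells, with 2.95 ± 0.816 and 12.8 ± 0.604 FPKM for EpH4 cells and 0.687 ± 0.0684 and 0.267 ± 0.207 for EpRas cells, and it reached 5 FPKM in TGF-β-treated EpH4 cells only. Of the 6 procollagen genes on the list these 2 reached 5 FPKM. Among 5 genes of procollagen processing, Bmp1, the C-proteinase, rose with TGF-β in EpH4 cells from 53.7 ± 2.75 to 227 ± 16.8 FPKM (adjusted p = 0.0017).

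**Figure D2:**
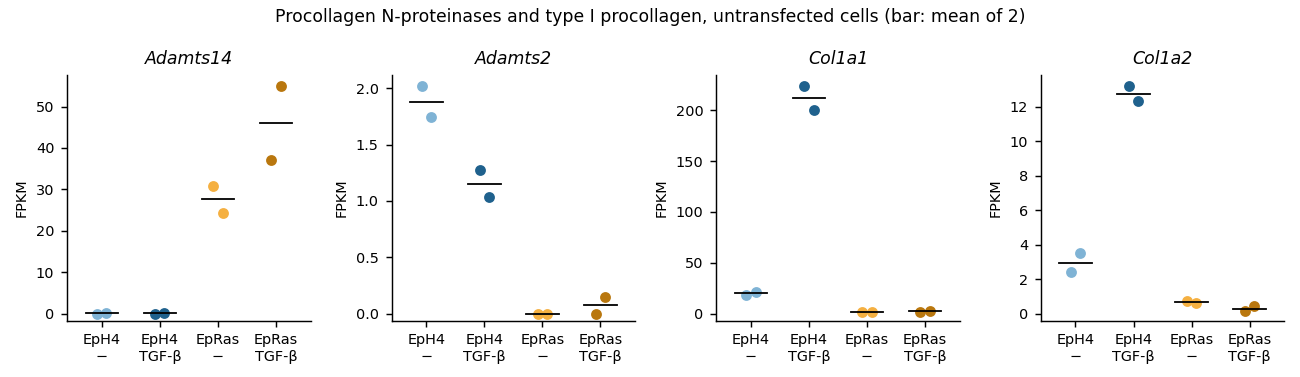
FPKM (vertical axes, linear, each with its own scale) of 2 procollagen N-proteinases and of type I procollagen in the 4 untransfected groups. Points are libraries and bars the mean of 2. Adamts14 is found in EpRas cells and Adamts2, Col1a1 and Col1a2 mainly in EpH4 cells.

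Adamts4 (chr1:171250421-171260637, plus strand), an aggrecanase, was the member that stood highest of all after TGF-β, and it did so in EpH4 cells. The untreated EpH4 libraries held 1.42 and 2.10 FPKM, from 29 and 58 reads, and the TGF-β libraries 78.1 and 75.6 FPKM, from 1149 and 1654 reads. Untreated EpRas cells held 0.322 and 0.779 FPKM, from 4 and 18 reads, and TGF-β-treated ones 5.89 and 8.31 FPKM, from 103 and 113 reads. No 2 of the 4 groups overlapped, and the order was EpRas, EpH4, EpRas with TGF-β and EpH4 with TGF-β.

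Per depth, TGF-β went with 42.3 times as many Adamts4 reads in EpH4 cells (34.2 to 53.0). In EpRas cells it went with 11.2 times as many (7.22 to 18.3). The untreated EpRas side rests on 4 and 18 reads at relative depths of 0.609 and 1.13. The counting intervals leave out this spread between cultures. EpRas cells had 0.342 of the EpH4 reads without TGF-β (0.204 to 0.551) and 0.0907 with it (0.0786 to 0.104). On the log2(FPKM + 1) scale, which understates changes of low genes, the response was 4.83 ± 0.23 in EpH4 and 2.38 ± 0.23 in EpRas cells. The difference between these responses was -2.44 ± 0.32.

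Of 4 basal epithelial markers, Krt14 made up nearly all of the summed level, which in EpH4 cells was 334 to 395 FPKM when untreated and 798 to 864 with TGF-β, and in EpRas cells 105 to 117 and 64.1 to 66.8. The sum was thus higher with TGF-β in EpH4 cells, as Adamts4 was, and lower in EpRas cells, where Adamts4 was higher. The other markers differed in direction. Trp63 was at 7.98 ± 0.868 FPKM in untreated EpH4 cells and 5.08 ± 0.623 with TGF-β, and below 0.2 FPKM in every EpRas library. Acta2 went from 0.372 ± 0.374 to 8.43 ± 0.297 FPKM in EpH4 and from 1.29 ± 0.0659 to 2.07 ± 0.268 in EpRas cells, and Krt5 was at most 0.0856 FPKM. The part of these markers in the Adamts4 values was not tested.

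The genes whose log2(FPKM + 1) ran most nearly like that of Adamts4 over the 8 libraries, out of 9100, were Mcam (r = 0.996), Zmiz1 (0.994), Palld (0.994), Fbln2 (0.988) and Col4a3 (0.987). Mcam, an adhesion molecule, had means of 6.41, 81.9, 3.27 and 16.5 FPKM in EpH4, EpH4 with TGF-β, EpRas and EpRas with TGF-β. For Adamts14 they were Cyba (0.996), Fam171a1 (0.996), Bdnf (0.996), Nptxr (0.995) and Pisd-ps1 (0.995). Cyba, a subunit of NADPH oxidase, was at 0 in the EpH4 groups and at 26.0 and 27.7 FPKM in the EpRas groups. These correlations describe 8 libraries in 4 groups, so they mostly restate the order of the 4 group means.

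Adamts1 and Adamts5, the other well-expressed members that cleave proteoglycans, lie next to each other on chromosome 16, with Adamts1 at chr16:85793827-85803113 and Adamts5 at chr16:85856173-85901828, both on the minus strand and 53059 bases apart. Both were lower in EpRas than in EpH4 cells. Adamts1 was at 19.8 and 28.1 FPKM in untreated EpH4 cells, 22.5 and 18.3 with TGF-β, 14.8 and 10.5 in untreated EpRas cells and 9.45 and 13.5 with TGF-β. The lines did not overlap, while libraries with and without TGF-β overlapped within each line. Its reads per depth in EpRas cells were 0.488 of those in EpH4 cells (0.443 to 0.537) without TGF-β and 0.562 (0.503 to 0.628) with it, and the log2 differences of -0.87 ± 0.26 and -0.79 ± 0.26 did not pass the threshold over all genes.

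Adamts5 was lower in EpRas cells and lower with TGF-β. The gene held 16.8 and 18.5 FPKM in untreated EpH4 cells, 12.4 and 11.6 with TGF-β, 10.0 and 9.62 in untreated EpRas cells and 4.39 and 4.36 with TGF-β. None of the 4 groups overlapped. TGF-β left 0.671 of the reads per depth in EpH4 cells (0.621 to 0.725) and 0.449 in EpRas cells (0.392 to 0.513), and the response differed between the lines by -0.49 ± 0.20 on the log2 scale, which did not pass the threshold. Under TGF-β, Adamts4 and Adamts5, both aggrecanases, thus stood in opposite directions in each line. The Adamts5 response itself, on the log2 scale, passed the threshold in EpRas cells (-1.01 ± 0.14) but not in EpH4 cells (-0.52 ± 0.14).

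Adamts9 and Adamts15 completed the proteoglycan-cleaving group at low levels. Adamts9 (chr6:92772699-92943492, minus strand) was at 0.759 and 0.775 FPKM in untreated EpH4 cells and 0.445 and 0.245 with TGF-β, and at 0.623 and 0.953 FPKM in untreated EpRas cells and 0.340 and 0.263 with TGF-β. The TGF-β libraries were below the untreated ones in both lines, with 0.423 (0.242 to 0.711) and 0.366 (0.194 to 0.653) of the reads per depth, on 6 to 37 reads a library, and the lines overlapped. It shares 1381 exonic bases with A730049H05Rik on the other strand. The libraries were directional, but the strand setting of the quantification is not given in the sources used here. Adamts15 (chr9:30899155-30922452, minus strand) gave 3 reads in all 8 libraries, 1 in untreated and 2 in TGF-β-treated EpH4 cells, and was not detectable in EpRas cells at this depth.

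Adamts7 (chr9:90163069-90208071, plus strand) and Adamts12 (chr15:11064790-11349231, plus strand), the pair that cleaves cartilage oligomeric matrix protein, both stood higher with TGF-β. Adamts7 was at 2.65 and 1.68 FPKM in untreated EpH4 cells and 4.22 and 3.82 with TGF-β, and at 1.41 and 1.05 FPKM in untreated EpRas cells and 1.58 and 2.53 with TGF-β. Groups with and without TGF-β did not overlap in either line, and the reads per depth with TGF-β were 1.90 times (1.54 to 2.36) and 1.70 times (1.22 to 2.38) those without. Adamts12 gave 0 and 0 reads in untreated EpH4 cells and 9 and 10 with TGF-β (0.352 and 0.263 FPKM), which is at least 8.31 times more per depth against a floor of 3 reads over the group. EpRas cells gave 0 and 3 reads without and 6 and 2 reads with TGF-β, and these overlap in counting error, with a ratio of 3.05 (0.731 to 17.8).

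Adamts10 (chr17:33524204-33553782, plus strand) was the most even member. It lay between 2.99 and 5.81 FPKM in all 8 libraries, the TGF-β-treated EpRas libraries (2.99 and 4.77) spanned both untreated groups, and the log2 difference farthest from 0 was the -0.41 ± 0.21 between the lines with TGF-β.

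**Figure D3:**
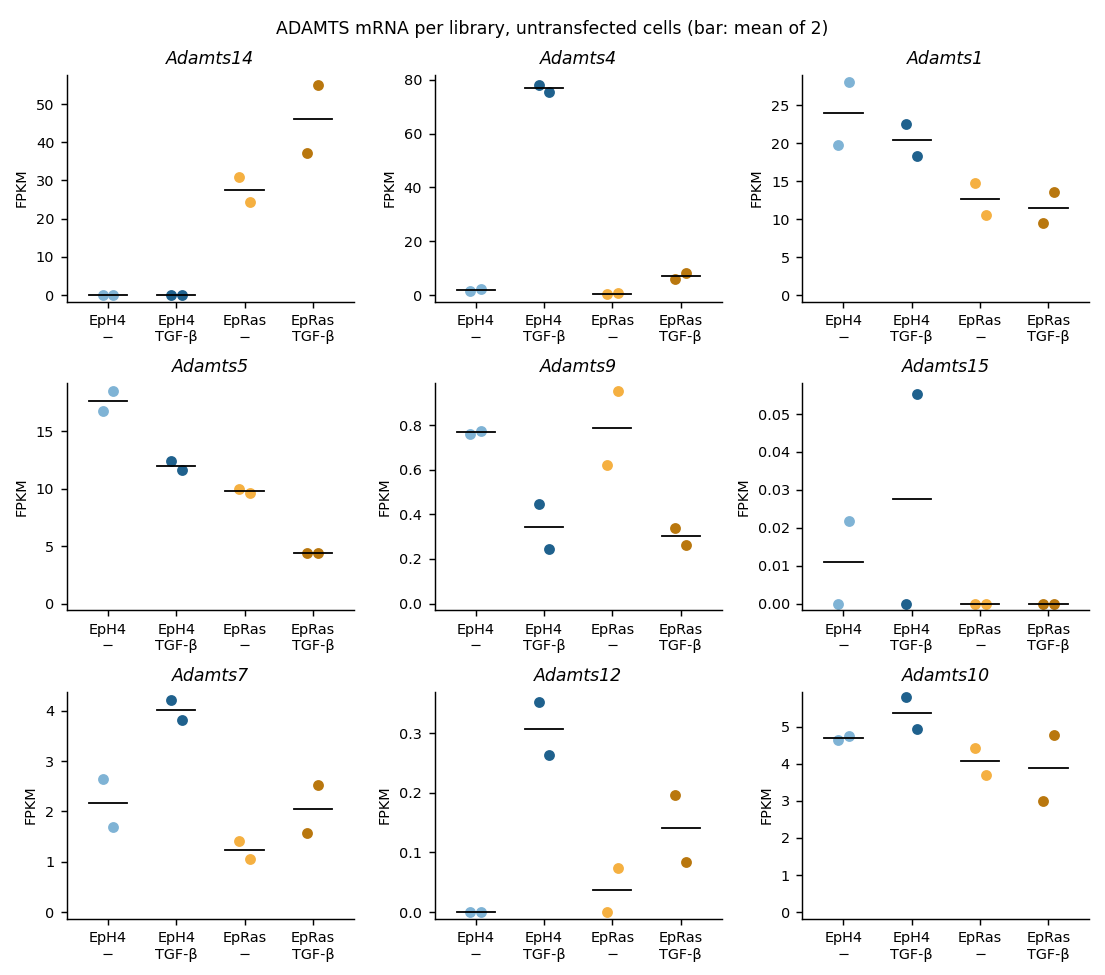
FPKM of the 9 members (vertical axes, linear, each with its own scale) in the 4 untransfected groups. Points are libraries and bars the mean of 2. Adamts14 separates the lines, Adamts4 peaks at 78.1 and 75.6 FPKM in EpH4 cells with TGF-β, and Adamts5 is lower in each group from left to right.

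Ranked by mean level, untreated EpH4 cells had Adamts1 (23.9 FPKM), Adamts5 (17.7), Adamts10 (4.69), Adamts7 (2.17), Adamts4 (1.76) and Adamts9 (0.767) in that order, where Adamts7 and Adamts4 overlapped. With TGF-β Adamts4 (76.8) came before Adamts1 (20.4), Adamts5 (12), Adamts10 (5.38) and Adamts7 (4.02), with no overlap among these 5. Untreated EpRas cells had Adamts14 (27.6), Adamts1 (12.6), Adamts5 (9.81), Adamts10 (4.07) and Adamts7 (1.23), also with no overlap among these 5. With TGF-β they had Adamts14 (46.0), Adamts1 (11.5), Adamts4 (7.10), Adamts5 (4.38), Adamts10 (3.88) and Adamts7 (2.06), where Adamts5 and Adamts10 overlapped.

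In all, 5 of the 9 members reached the 5 FPKM in at least 1 library that a test required, Adamts1, Adamts4, Adamts5, Adamts10 and Adamts14, and the other 4 were not tested. Adamts14 reached it in EpRas cells only and Adamts4 with TGF-β only. Without TGF-β, 3 of the 5 (Adamts4, Adamts5 and Adamts14) passed the threshold of the linear model (adjusted p under 0.05) between the lines, beside 17.6% of the 9100 genes tested. With TGF-β the same 3 passed, beside 21.3%. TGF-β in EpH4 cells gave 1 (Adamts4), beside 9.4%, and in EpRas cells 2 (Adamts4 and Adamts5), beside 3.82%. For the difference between the responses of the lines it was 1 of 5 (Adamts4), beside 0.802%. Since the members were selected on these contrasts, the counts describe them and nothing is read from them. Without the second untreated EpH4 library or the second untreated EpRas library the count between untreated lines was 1, without the second TGF-β-treated EpRas library that for TGF-β in EpH4 cells was 2, and that for TGF-β in EpRas cells was 1 without either untreated EpRas library and 0 when only the 4 EpRas libraries entered the fit. The count for the difference between the responses was 0 with 0.5 FPKM added in place of 1, and 0 without either untreated EpH4 library, either TGF-β-treated EpH4 library or either untreated EpRas library.

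**Figure D4:**
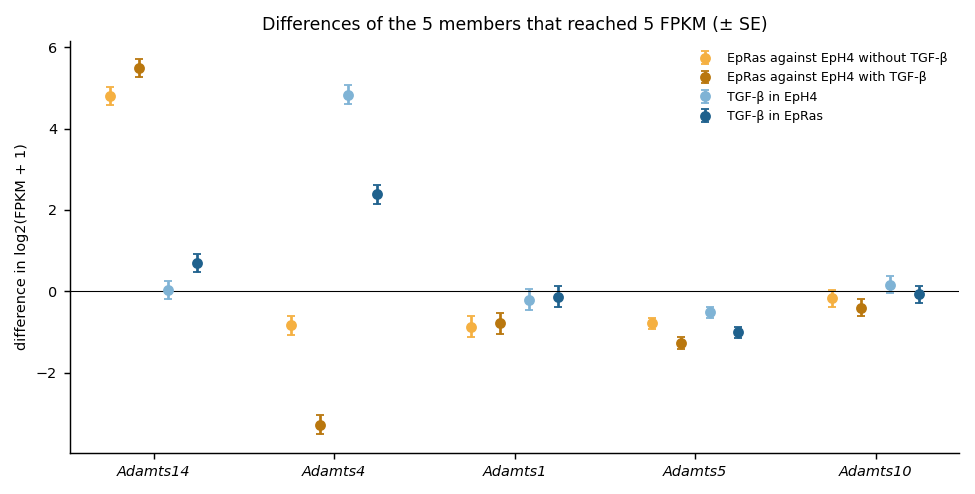
Difference in log2(FPKM + 1) with its standard error (vertical axis) for the 5 members that reached 5 FPKM (horizontal axis), in 4 contrasts with 2 libraries a group. Adamts14 stands out between the lines (4.81 and 5.48), Adamts4 under TGF-β (4.83 in EpH4 and 2.38 in EpRas cells), and Adamts10 stays near 0.

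Of the 10 remaining family members none reached 5 FPKM, and 3, Adamts2, Adamts6 and Adamts8, reached 1 FPKM. Adamts6, a protease of fibrillin-rich matrix like Adamts10, was at 0.295 and 0.516 FPKM in untreated EpH4 cells and 1.58 and 1.89 with TGF-β, and at 0.302 and 0.163 FPKM in untreated EpRas cells and 3.26 and 2.82 with TGF-β. Groups with and without TGF-β did not overlap in either line, and the reads per depth with TGF-β were 4.18 times (2.69 to 6.70) those without in EpH4 and 14.5 times (7.64 to 31.0) in EpRas cells. Adamts8, the chromosome 9 neighbour of Adamts15 at a distance of 20109 bases, went from 0 and 0 reads to 24 and 21 in EpH4 cells and from 1 and 2 reads to 16 and 17 in EpRas cells. That is at least 19.7 times more per depth in EpH4 cells, against a floor of 3 reads over the group, and 12.6 times (3.94 to 64.0) in EpRas cells. In these 8 libraries both genes reached 1 FPKM with TGF-β only, so they are given without a test. In EpRas cells with siNC, quantified separately, the ratios were smaller, 1.91 (1.35 to 2.75) for Adamts6 and 2.3 (0.62 to 12.7) for Adamts8. With the first and second siRNA pair they were 10.4 (6.01 to 19.5) and 9.86 (5.43 to 19.6) for Adamts6. For Adamts8 they were 4.6 (1.28 to 24.9) and 1.62 (0.572 to 4.92). The other 7 genes were at or below 0.445 FPKM in every untransfected library.

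Genes that act with the proteases were counted from lists that were drawn up with earlier results of these data known. Of 58 such genes, Adamts relatives included, 21 reached 5 FPKM. Between the untreated lines 2 were higher and 7 lower in EpRas cells, 9 of 21 where 17.6% of all genes passed (769 higher and 829 lower). With TGF-β 1 was higher and 8 lower, where 21.3% of all genes passed (812 and 1123). TGF-β raised 10 and lowered 1 in EpH4 cells, where 9.4% of all genes passed (590 and 265), and raised 3 and lowered 4 in EpRas cells, where 3.82% did (173 and 175). These counts include Col1a1, Col1a2, Pcsk6, B3galtl and Adamtsl3, which reached 5 FPKM only in the line or treatment where they were higher. The medians of log2 difference were 0.05, -0.79, 0.93 and -0.01 in these 4 contrasts, where those of all genes lay between -0.019 and -0.0031. The 11 calls for TGF-β in EpH4 cells became 5 without the first and 6 without the second TGF-β-treated EpH4 library. The 7 for TGF-β in EpRas cells became 0 when only the EpRas libraries entered the fit, 3 without either TGF-β-treated EpH4 library, 1 without the first and 2 without the second untreated EpRas library, and 4 without the second TGF-β-treated EpRas library.

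Timp3, the main inhibitor of the aggrecanases, was lower in EpRas cells, at 24.8 ± 3.6 against 77.7 ± 5.54 FPKM without TGF-β (log2 difference -1.61 ± 0.17, limma adjusted p = 0.000916) and at 11.5 ± 0.966 against 77.7 ± 6.01 FPKM with it (-2.66 ± 0.17, adjusted p = 6.28e-05). It also fell with TGF-β in EpRas cells (-1.05 ± 0.17, adjusted p = 0.0166), a call kept in 8 of 14 alternative fits (highest adjusted p 0.156). The direction was the opposite in the EpRas cells of the siRNA table, where the reads per depth with TGF-β were 1.68 (1.59 to 1.76), 2.47 (2.35 to 2.61) and 2.05 (1.91 to 2.2) times those without under siNC, pair 1 and pair 2. Of 8 inhibitors and clearance receptors, 5 were tested. Lrp1, the endocytic receptor that clears Adamts4 and Adamts5, was higher in untreated EpRas than EpH4 cells (65.1 ± 7.10 against 24.3 ± 5.34 FPKM, adjusted p = 0.00484) and rose with TGF-β in EpH4 cells to 56.4 ± 4.41 FPKM (adjusted p = 0.0139, kept in 11 of 14). Timp1 rose with TGF-β in EpH4 cells from 230 ± 0.657 to 902 ± 34.3 FPKM (adjusted p = 0.0168, kept in 10 of 14). Timp2 (161 ± 3.02 to 94.0 ± 7.30 FPKM, adjusted p = 0.0394, kept in 3 of 14) and Sdc4, a cell surface proteoglycan (99.7 ± 4.14 to 53.3 ± 1.48 FPKM, adjusted p = 0.0304, kept in 6 of 14), fell with TGF-β in EpRas cells. Of the calls not kept throughout, those of Timp1 and Lrp1 for TGF-β were lost without single EpH4 libraries (highest adjusted p 0.126 and 0.132), and those of Timp3, Timp2 and Sdc4 for TGF-β were lost with only the EpRas libraries, without either TGF-β-treated EpH4 library, without either untreated EpRas library and without the second TGF-β-treated EpRas library (highest 0.156, 0.217 and 0.194). Those of Timp2 and Sdc4 were also lost with the replicate number as a block.

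Among 7 genes of propeptide removal and thrombospondin repeat glycosylation, 5 were tested. Furin rose with TGF-β in EpH4 cells from 30.4 ± 2.29 to 86.4 ± 13.2 FPKM (limma adjusted p = 0.00212) and in EpRas cells from 33.4 ± 1.82 to 64.0 ± 5.61 FPKM (adjusted p = 0.0301, kept in 4 of 14). Pcsk6, another convertase, was at 3.71 ± 0.935 FPKM in EpRas and 14 ± 2.76 FPKM in EpH4 cells when both were untreated. Under TGF-β the levels were 2.29 ± 0.0205 and 9.61 ± 0.151 FPKM. The glucosyltransferase B3galtl was at 4.14 ± 0.118 FPKM in untreated EpRas and 8.62 ± 0.488 FPKM in untreated EpH4 cells. Of the untransfected cells, only EpH4 cells reached 5 FPKM of Pcsk6 and B3galtl, so their differences between the lines are given without a test. The fucosyltransferase Pofut2 rose with TGF-β in EpH4 cells (0.93 ± 0.17, adjusted p = 0.0171, kept in 10 of 14). Leaving out single libraries raised the adjusted p to at most 0.163 for Pofut2 (any EpH4 library), and that of Furin in EpRas cells reached 0.17, with the call lost without any 1 of the 8 libraries and with the replicate block.

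Of 15 proteoglycan and matrix substrates only Thbs1 and Fn1 reached 5 FPKM. Aggrecan and versican were thus below the level tested, at no more than 0.156 and 0.216 FPKM in any untransfected library. Fn1, fibronectin, rose with TGF-β in EpH4 cells from 262 ± 30.6 to 556 ± 27.5 FPKM (limma adjusted p = 0.00541, kept in 12 of 14) and in EpRas cells from 305 ± 12.1 to 914 ± 28.7 FPKM (adjusted p = 0.00202, kept in 13 of 14). Thbs1, thrombospondin-1, was lower in EpRas cells with TGF-β (92.8 ± 10.2 against 311 ± 16.7 FPKM, adjusted p = 0.000389). Of 7 ADAMTS-like genes, which carry the ancillary domains without the protease, 4 were tested. The level of Adamtsl3 was 0.545 ± 0.0567 FPKM without and 5.85 ± 0.594 FPKM with the cytokine in EpH4 cells, while EpRas cells held 2.59 ± 0.0314 and 8.05 ± 1.29 FPKM. It reached 5 FPKM with TGF-β only and is given without a test. Thsd4 was lower in EpRas cells, at 7.34 ± 0.934 against 17.1 ± 1.71 FPKM without TGF-β (adjusted p = 0.00501). The calls not kept were that of Fn1 in EpH4 cells without either TGF-β-treated EpH4 library (highest adjusted p 0.0715) and that of Fn1 in EpRas cells with only the EpRas libraries (0.0521).

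The siRNA libraries allow a look at the members after loss of Etv4 and Etv5 in EpRas cells. In separate, untransfected cultures, the level of Etv4 in untreated EpRas cells was 63.5 ± 1.88 FPKM against 36.7 ± 2.55 in EpH4 cells (limma adjusted p = 0.0189), and that of Etv5 10.2 ± 0.976 against 5.83 ± 0.532 (adjusted p = 0.0182). Pair 1 left 20.2% of the siNC level of Etv4 without and 19.6% with TGF-β, and pair 2 left 48.5% and 29.4%. Etv5 was at 18.3% and 23.2% with pair 1 and at 14.2% and 22.5% with pair 2. The Etv5 siRNA of pair 2 was a custom design, shown because it sets that pair apart from the catalogue siRNAs of pair 1.
Etv5 siRNA of pair 2: uuaaauuccaugccucggccagucc
With 1 library a condition there is no replicate check and no test. These values come from a table that was quantified apart from the untransfected cells, so levels are not compared between the tables. Where TGF-β responses of both are given side by side, their difference was not tested.

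Adamts4 was the member that stood apart. With TGF-β it was at 3.97 FPKM with siNC (178 reads), 28.6 FPKM with pair 1 (1018 reads) and 15.6 FPKM with pair 2 (498 reads). Both pairs were higher, 7.22 times (6.15 to 8.51) and 3.94 times (3.31 to 4.70) in reads per depth. The intervals that Cuffdiff gives, 1.29 to 6.64 FPKM with siNC, 15.2 to 42.0 with pair 1 and 7.80 to 23.4 with pair 2, did not overlap between siNC and either pair. Without TGF-β it was at 0.814, 1.51 and 1.10 FPKM, and the ratios to siNC were 1.86 (1.10 to 3.24) and 1.35 (0.766 to 2.43). TGF-β thus went with 4.87 times more Adamts4 reads with siNC (3.09 to 8.06), 18.9 times more with pair 1 (14.3 to 25.4) and 14.2 times more with pair 2 (10.1 to 20.6). Across the 6 siRNA libraries the basal markers summed to 109 to 416 FPKM and the mesenchymal markers to 508 to 808. The part of these markers in the siRNA values was not tested.

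Adamts14 was at 19.8 FPKM with siNC, 10.0 with pair 1 and 17.4 with pair 2 when untreated, and TGF-β-treated libraries held 21, 16.7 and 27.4 FPKM. Pair 1 was lower both times, at 0.507 (0.451 to 0.568) and 0.796 (0.730 to 0.868) of the siNC reads per depth, whereas pair 2 was lower without TGF-β at 0.879 (0.795 to 0.973) and higher with it at 1.31 (1.21 to 1.41). The Cuffdiff intervals overlapped in every one of these comparisons.

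Adamts1 and Adamts5 were 2.03 to 3.51 times as high with pair 1 as with siNC, and closer to siNC with pair 2. Adamts1 was at 14.5 FPKM with siNC, 29.4 with pair 1 and 12.7 with pair 2 when untreated, and at 9.91, 28 and 10.9 under TGF-β. For Adamts5 the untreated libraries held 8.23, 16.8 and 7.42 FPKM and the treated ones 2.85, 9.99 and 3.82. Pair 1 held 2.03 (1.83 to 2.25) and 2.82 (2.56 to 3.12) times the Adamts1 reads of siNC per depth without and with TGF-β, and 2.04 (1.84 to 2.27) and 3.51 (3.06 to 4.02) times those of Adamts5. With pair 2 the same ratios were 0.878 (0.777 to 0.992) and 1.10 (0.969 to 1.24) for Adamts1 and 0.902 (0.797 to 1.02) and 1.34 (1.13 to 1.58) for Adamts5. Adamts5 was lower with TGF-β under all 3 transfections, at 0.346 (0.298 to 0.401) of the untreated reads with siNC, 0.596 (0.545 to 0.650) with pair 1 and 0.514 (0.444 to 0.595) with pair 2.

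The weakly expressed members gave the following values. Adamts7 was at 1.75 FPKM with siNC, 1.52 with pair 1 and 0.843 with pair 2, and at 3.50, 3.02 and 1.5 FPKM with TGF-β, so each transfection held more with TGF-β, 2.0 (1.52 to 2.66), 1.98 (1.5 to 2.63) and 1.78 (1.20 to 2.68) times. Adamts9 was at 1.15 FPKM with siNC and lower with both pairs without TGF-β, 0.323 and 0.254 FPKM, or 0.280 (0.156 to 0.483) and 0.220 (0.112 to 0.404) of the reads per depth. With TGF-β it was at 0.225 FPKM with siNC, 0.485 with pair 1 and 0.112 with pair 2, and the order of the pairs against siNC was no longer the same. Adamts12 gave 9 reads with siNC and TGF-β, 30 with pair 1 and 19 with pair 2, ratios of 4.21 (1.95 to 10.1) and 2.97 (1.28 to 7.46). Adamts10 ranged from 1.95 to 4.27 FPKM with overlapping Cuffdiff intervals, and Adamts15 gave 1 read in 6 libraries.

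By a rule of at least 2-fold on log2(FPKM + 1) in the same direction with both pairs, 4 members were high enough to count (5 FPKM or more in a library). None of the 4 passed without TGF-β, where 4.02% of 9094 genes did, and 1, Adamts4, passed with TGF-β, where 3.82% did. Among the siRNA libraries Adamts4 reached 5 FPKM only with the siRNA pairs under TGF-β (28.6 and 15.6 FPKM). It was thus counted only through the libraries where it was high, and its pass is a description. TGF-β alone changed 2 of the 4 by 2-fold in siNC cells, Adamts4 upwards and Adamts5 downwards, where 5.74% of genes passed, and 0 with 5 FPKM added before the logarithm. The members had been chosen with these libraries in view, so the counts carry no weight beyond description.

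**Figure D5:**
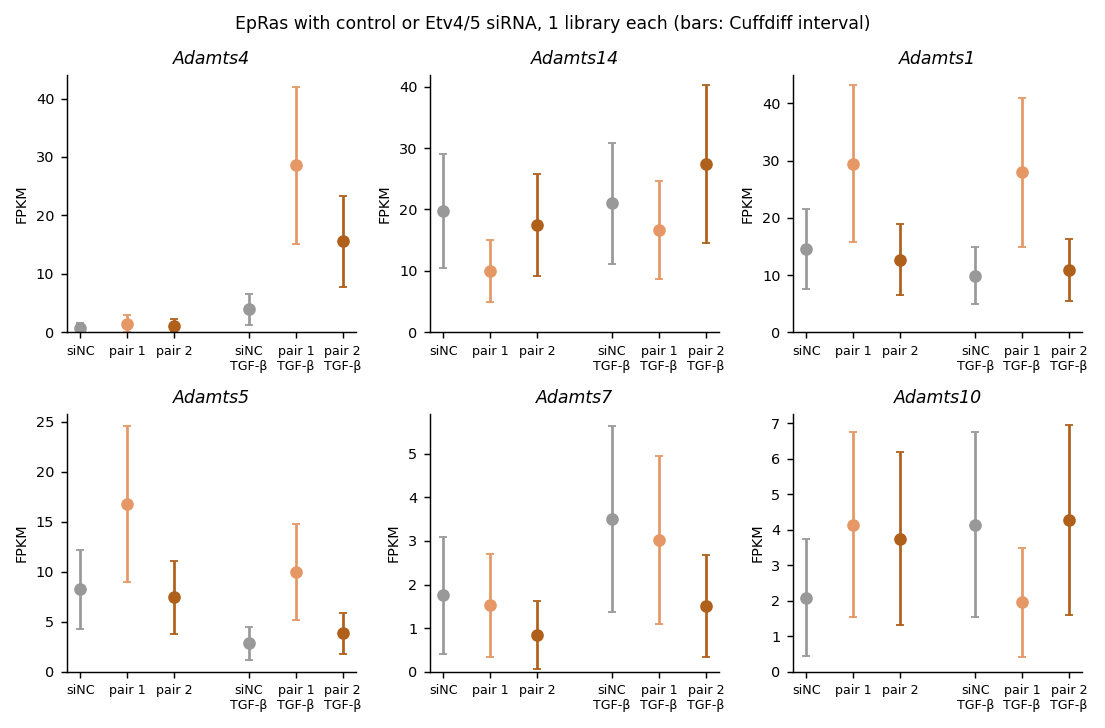
FPKM of 6 members (vertical axes, linear, each with its own scale) in the 6 siRNA libraries of EpRas cells, 1 per condition. Points are the libraries and bars the interval Cuffdiff gives. With TGF-β, Adamts4 is higher with both siRNA pairs (28.6 and 15.6 FPKM) than with siNC (3.97 FPKM), while Adamts1 and Adamts5 are higher with pair 1.

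The type I procollagen genes, low in EpRas cells, were also higher with both pairs. Col1a1 gave 21 reads with siNC, 650 with pair 1 and 88 with pair 2 without TGF-β, ratios of 22.8 (14.8 to 37.1) and 3.29 (2.03 to 5.58) per depth. Timp3 was at 0.671 (0.630 to 0.714) with pair 1 and 0.454 (0.422 to 0.488) with pair 2 of the siNC reads without TGF-β, and at 0.991 (0.953 to 1.03) and 0.554 (0.528 to 0.581) with it. The ADAMTS-like gene Adamtsl4 was lower with both pairs. Without TGF-β it was at 0.304 (0.257 to 0.36) and 0.45 (0.387 to 0.522) of the siNC reads. With TGF-β it was at 0.146 (0.117 to 0.18) and 0.159 (0.127 to 0.197).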

How the data were processed

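RNA-seq libraries (oligo(dT)-selected mRNA, directional, Ion Proton) were made by the authors from 14 samples. Per the submitters' processing notes and the study's methods, reads were aligned to mm10 with TopHat2 2.0.11 and Bowtie2 and quantified with Cufflinks 2.2.0 (Cuffdiff). The deposited values are FPKM per gene and library with the interval Cuffdiff gives, in 2 tables quantified independently, so tests stayed within a table. FPKM is scaled by library size, and the scaling setting of Cuffdiff is not given in the sources used here. Whether a few strongly raised genes lower the values of others was not tested.

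Genes without an OK status were left out (3 in the untransfected and 2 in the siRNA table). For the untransfected table, limma 3.58.1 (4 groups of 2, contrasts, empirical Bayes) was fitted to log2(FPKM + 1) of the 9100 genes that reached 5 FPKM in a library, with Benjamini-Hochberg adjustment over all of them and a threshold of 0.05. The study gives the 2 libraries of a group as biological replicates. For genes with a single promoter, reads and relative depth were recovered from the steps between low FPKM values (tolerance 0.02) and compared by exact 95% binomial intervals, with 3 reads as the floor for 0. Both steps were tested on simulated data. The alternatives were 0.5 or 5 FPKM added, a filter at 1 FPKM, only the groups compared, a replicate block, limma-trend and each library left out, and for the siRNA table upper-quartile scaling.

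The members and lists were chosen with earlier results of these data known. Named genes are all members, Adamts genes that reached a test, up to 6 genes of each functional list past the threshold with the largest difference, Etv4 and Etv5, and the 5 genes most like Adamts4 and Adamts14. Genes outside this rule are Adamts2, Adamts3, Adamts6 and Adamts8, relatives below the test's filter, and Adamtsl4, given for its siRNA values. Pmepa1, A730049H05Rik and the cell type markers, also outside it, are given as checks. All of these were chosen after their values were seen. Gene positions come from GENCODE M21 and promoters from RefSeq.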

Additional observations from a re-analysis of the deposited data

Results flagged for a closer look

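The interaction term of the model, the response to TGF-β in EpRas minus that in EpH4 cells, was past the threshold for 1 member and 2 genes of the lists. In the untransfected cells all 3 reached 5 FPKM only in groups where they were high, so the values are a description. For Adamts4 the response in EpRas minus that in EpH4 cells was -2.44 on the log2(FPKM + 1) scale, and the gene was also selected on this pattern. The member count went from 1 to 0 with 0.5 FPKM added and without either untreated EpH4, either TGF-β-treated EpH4 or either untreated EpRas library. For Col1a1 it was -3.12, past the threshold in 11 of 13 alternatives, the exceptions being the fits without either TGF-β-treated EpH4 library. For Col1a2 it was -2.23, past the threshold in 7 of 13 alternatives, lost with limma-trend and without the first untreated EpH4, either TGF-β-treated EpH4 or either untreated EpRas library.

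For Timp2 both TGF-β libraries lay above both untreated ones in EpH4 cells and below them in EpRas cells. The EpH4 levels were close, 156 ± 18.6 FPKM untreated and 175 ± 2.67 with TGF-β. That response, 0.17 ± 0.15 on the log2 scale, did not pass the threshold (limma adjusted p = 0.552). The difference of the responses was -0.95 and did not pass the threshold of the interaction test.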

How the results depend on the processing

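The count of members past the threshold between the lines with TGF-β, and the count with both siRNA pairs in either condition, stayed within 1.5 times under every alternative run. Leaving out 1 library gave 1 to 4 members between the untreated lines, 3 to 4 between the lines with TGF-β, 1 to 2 for TGF-β in EpH4 cells, 1 to 2 for TGF-β in EpRas cells and 0 to 1 for the difference of the responses. The genes of the lists gave 8 to 9, 6 to 13, 5 to 11, 1 to 5 and 0 to 3 in the same 5 contrasts, and all genes 736 to 2104, 816 to 2370, 242 to 1153, 135 to 407 and 11 to 133. When the fit held the EpRas groups alone, TGF-β in EpRas cells gave 0 members, 0 list genes and 45 of all genes against 348. With 0.5 FPKM added the difference of the responses gave 0 members against 1, and with 5 FPKM added TGF-β in siNC cells gave 0 against 2. A filter at 1 FPKM raised the list genes for TGF-β in EpH4 cells from 11 to 17, since more of them were then tested. With limma-trend the difference of the responses gave 1 list gene against 2 and 45 genes in all against 73.

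Same-numbered libraries did not vary together (correlations of deviations from -0.347 to 0.0785), so the numbers do not pair the samples. With the replicate block, list genes for TGF-β in EpRas cells went from 7 to 4, and all genes to 547, 222 and 31 for TGF-β in EpH4, in EpRas and the difference, and the member counts stayed as they were. Of 38 calls for the named list genes, 19 held under every alternative and 19 were lost under at least 1, mostly those that leave out a library, and none reversed. Beyond these, the cause of a lost call was not tested.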
